A study of Mus musculus with 6 samples.

Results

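The heme biosynthesis enzymes described here are the products of 8 genes, *Alas1*, *Alas2*, *Alad*, *Uros*, *Urod*, *Cpox*, *Ppox* and *Fech*, taken by gene symbol from 51802 symbols. They were listed with 50 of the 128603 transcripts. These genes were chosen on measured values of the same contrast that is described below: heme biosynthesis stood among the gene ontology terms of the transcripts that earlier work on these samples listed as changed between the genotypes, and 1 *Ppox* transcript is in that list. Their differences between genotypes are therefore given as a description, with no p per gene.

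Bulk RNA-seq was performed on the cochleae of mice at 2 months of age, with 3 wildtype samples (replicates 3, 4 and 5) and 3 *Pou4f3(Δ/+)* samples (replicates 1, 2 and 3). *Pou4f3* encodes a hair cell transcription factor, and the *Pou4f3(Δ/+)* mice are heterozygous for a knock-in allele with a short deletion that truncates the protein, modelled on a mutation of human DFNA15 deafness. The strain background of both groups is spelled C57/BL6J in the labels (C57BL/6J in the study's text), and the labels give no treatment. The labels do not say whether a sample is 1 animal or a pool, nor the sex, so the spread given here is that between samples, which may be technical in part.

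Heme is an iron-containing porphyrin that carries oxygen in hemoglobin and electrons in the cytochromes. Its synthesis starts in the mitochondrion, where a 5-aminolevulinate synthase joins glycine to succinyl-CoA. *Alas1* encodes the synthase of most cells, and *Alas2*, on the X chromosome, the synthase of red cell precursors. The middle steps run in the cytosol, and the last ones, up to the insertion of iron, again in the mitochondrion.

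The summed counts were 14295069 to 17696784 per sample. On the first principal component of log2 CPM (counts scaled to the library's total) over the tested genes, which held 32.5% of the variance, *Pou4f3(Δ/+)* replicates 1 and 2 lay at 23.2 and 40.2 and the other 4 samples at -21.5 to -11.7, so results are also given without these 2 samples. The 8 hair cell markers (*Myo7a*, *Otof* and others) summed to 44.9 to 53.3 FPKM (fragments per kilobase, relative to all counts of the sample), and the 7 markers of the lateral wall and supporting cells, led by *Coch*, to 2576 to 3476 FPKM, with none at 0 in all samples. *Pou4f3* itself had 68, 72 and 88 counts in wildtype and 66, 97 and 52 in *Pou4f3(Δ/+)*. Both alleles count toward its single listed transcript, so this gives no check of the genotype.

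*Alas2* was the most abundant of the 8 genes in every sample. Its FPKM, summed over its transcripts, was 294, 278 and 248 in wildtype replicates 3, 4 and 5. The corresponding values in *Pou4f3(Δ/+)* replicates 1, 2 and 3 were 366, 369 and 268. The first 2 mutant samples thus lay above all wildtype samples, while the remaining one lay inside the wildtype range. The group means were 273 ± 23.1 and 334 ± 57.2 FPKM (SD, n = 3 each), from 7747 to 12823 counts per sample. More cells of a type and more RNA per cell cannot be told apart in such bulk values.

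*Alas2* lies on chromosome X from 150547375 to 150570638 (GRCm38, plus strand). Almost all of its FPKM fell on 2 protein-coding transcripts. ENSMUST00000066337 held 70.1% ± 1.1 of it in wildtype (SD, n = 3) and 71.0% ± 3.0 in the *Pou4f3(Δ/+)* samples (SD, n = 3), and ENSMUST00000112715 held 28.7% ± 0.9 and 27.6% ± 2.9. They differ within the coding sequence by an in-frame stretch of 45 bases in exon 3, chrX:150552959-150553003, that the longer form keeps and the shorter one leaves out. These letters, from the GENCODE M21 transcripts, are printed because they set the forms apart inside the coding sequence:
Alas2 exon 3 stretch: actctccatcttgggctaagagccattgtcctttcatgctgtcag
The messenger also carries an iron-responsive element in the untranslated part of exon 1, a hairpin bound by the iron regulatory proteins, which block its translation when iron is short. It is shown because it lies in both forms, at chrX:150547461-150547483, with the 6 loop bases in capitals:
Alas2 iron-responsive element: gttcgtcctCAGTGCagggcaac
The pattern searched was C, any 5 bases, CAGTG with A, C or T behind it, and 5 bases that pair with the first 5, G-U pairs allowed. Within the first 111 bases, the length of *Alas2* exon 1, it was found in 25 of 58731 coding transcripts (0.0426%). Control through this element acts on translation, which RNA levels do not show.

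*Alas1*, the synthase used outside the red cell lineage, was the next by mean level after *Alas2* and *Fech*. It had 116, 103 and 91.3 FPKM in wildtype replicates 3, 4 and 5 and 98.7, 136 and 96.5 FPKM in *Pou4f3(Δ/+)* replicates 1, 2 and 3. Only *Pou4f3(Δ/+)* replicate 2 exceeded the wildtype range, and the means were 103 ± 12.2 and 110 ± 22.3 FPKM (SD, n = 3 each). The gene (chromosome 9, 106233455 to 106248654) was listed with 13 transcripts. Its largest share of FPKM, 43.8% ± 2.4 in wildtype and 43.2% ± 1.7 in *Pou4f3(Δ/+)*, fell on ENSMUST00000215222, a coding fragment of 460 bases with 291 to 426 counts per sample. The full-length coding transcript ENSMUST00000074082 held 23.1% ± 2.8 and 21.3% ± 4.2, and the noncoding ENSMUST00000134053 20.7% ± 1.1 and 23.7% ± 4.6. The fragment thus weighs more in the FPKM sum than in the 1791 to 2806 counts of the gene, since FPKM divides by length.

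The level of *Alas2* was set against that of *Alas1* within each sample, since both encode the same first step. The ratio of the FPKM sums was 2.54, 2.70 and 2.72 in wildtype replicates 3, 4 and 5. In *Pou4f3(Δ/+)* replicates 1, 2 and 3 it was 3.71, 2.71 and 2.78. Replicate 1 stood far above the wildtype range and replicate 3 just above it, and replicate 2, in which *Alas1* and *Alas2* were both at their highest, lay within it. The means were 2.65 ± 0.1002 and 3.07 ± 0.556 (SD, n = 3 each), a difference of 0.20 on the log2 scale, which was 0.051 without *Pou4f3(Δ/+)* replicate 1. The ratio of counts, which does not divide by length, was 4.05 ± 0.154 and 4.68 ± 0.886, and again only replicate 1, at 5.69, stood far off. With ENSMUST00000066337 over ENSMUST00000074082, the leading full-length coding transcript of each gene, the ratio was 8.56, 8.36 and 7.38 in wildtype and 11.4, 8.16 and 11.6 in *Pou4f3(Δ/+)*. On that measure, chosen after the shares were seen, replicates 1 and 3 were the high samples.

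**Figure D1:**
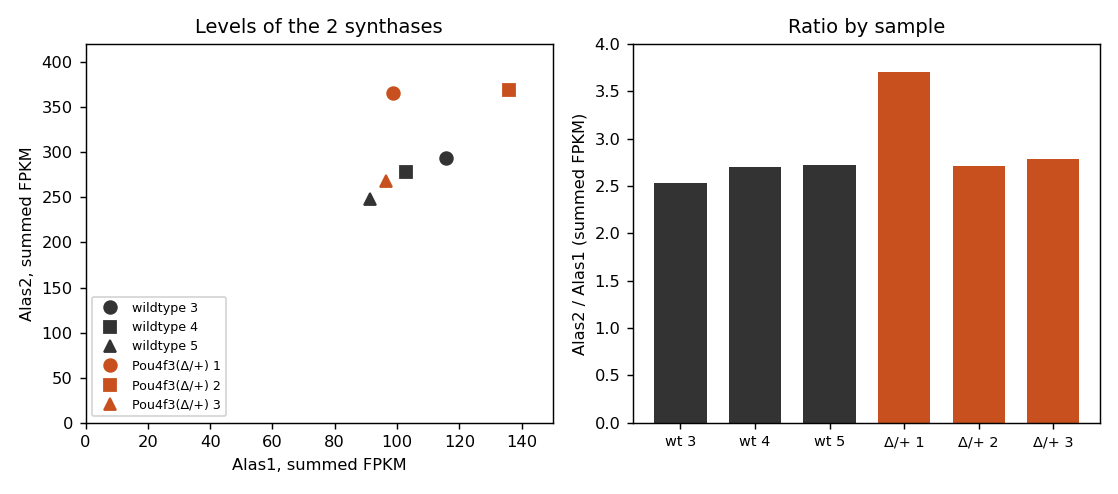
Left, summed FPKM of *Alas2* (y axis) against *Alas1* (x axis), 1 point per sample; right, their ratio per sample as bars from 0 (wt, wildtype; Δ/+, *Pou4f3(Δ/+)*; the number is the replicate). 5 of the 6 ratios lie between 2.54 and 2.78, and *Pou4f3(Δ/+)* replicate 1 reaches 3.71 with *Alas1* at 98.7 FPKM.

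The cytosolic steps follow. *Alad* encodes aminolevulinate dehydratase, which joins 2 aminolevulinate molecules to porphobilinogen. Its FPKM was 41.7, 44.0 and 36.0 in wildtype and 54.1, 49.5 and 46.3 in *Pou4f3(Δ/+)*. All mutant samples were above all wildtype samples, with means of 40.6 ± 4.12 and 49.97 ± 3.92 FPKM (SD, n = 3 each). *Uros*, which encodes uroporphyrinogen III synthase, was the lowest of the 8, at 34.3, 36.1 and 30.3 FPKM in wildtype and 49.6, 38.7 and 34.7 FPKM in *Pou4f3(Δ/+)*. Here the groups overlapped, because mutant replicate 3 fell between wildtype samples. *Urod* encodes uroporphyrinogen decarboxylase and had 65.9, 64.4 and 51.0 FPKM in wildtype against 75.9, 70.2 and 72.8 FPKM in *Pou4f3(Δ/+)*. It was the other gene without overlap, and its mutant values were closer together (73.0 ± 2.82) than its wildtype values (60.4 ± 8.24).

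Of the mitochondrial steps, *Cpox* varied most. It encodes coproporphyrinogen oxidase and had 60.77, 62.99 and 48.34 FPKM in wildtype replicates 3, 4 and 5 against 106, 75.9 and 56.2 FPKM in *Pou4f3(Δ/+)* replicates 1, 2 and 3. The mutant samples ran from inside the wildtype range to well above it, on 2624 to 5994 counts in its single listed transcript. *Ppox*, protoporphyrinogen oxidase, had 58.6, 61.6 and 49.4 FPKM in wildtype and 70.8, 66.3 and 54.3 FPKM in *Pou4f3(Δ/+)*. Its sample order was that of *Cpox*, over a narrower range.

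*Fech* encodes ferrochelatase, which inserts the iron, and lies on chromosome 18 from 64452914 to 64490251. It was the second most abundant gene, at 108, 110 and 86.1 FPKM in wildtype and 124, 112 and 108 FPKM in *Pou4f3(Δ/+)*. The mutant sample at 108 lay just below 2 wildtype samples, so the groups overlapped.

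By mean FPKM over the 6 samples the order was *Alas2* (304), *Fech* (108), *Alas1* (107), *Cpox* (68.4), *Urod* (66.7), *Ppox* (60.2), *Alad* (45.3) and *Uros* (37.3). *Alas2* was above *Fech* in 6 of 6 samples with ranges apart. For the other neighbours the ranges overlapped. *Fech* exceeded *Alas1* in 3 of 6 samples and *Cpox* exceeded *Urod* in 2 of 6, whereas *Urod* was above *Ppox*, *Ppox* above *Alad* and *Alad* above *Uros* in all 6. Wildtype replicate 5 was the lowest wildtype sample for all 8 genes, and *Pou4f3(Δ/+)* replicate 3 the lowest mutant sample for 7. The same 2 samples were the lowest of their groups in the summed FPKM of the erythroid and B cell markers given below. The share of all genes with these lowest samples was not counted.

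**Figure D2:**
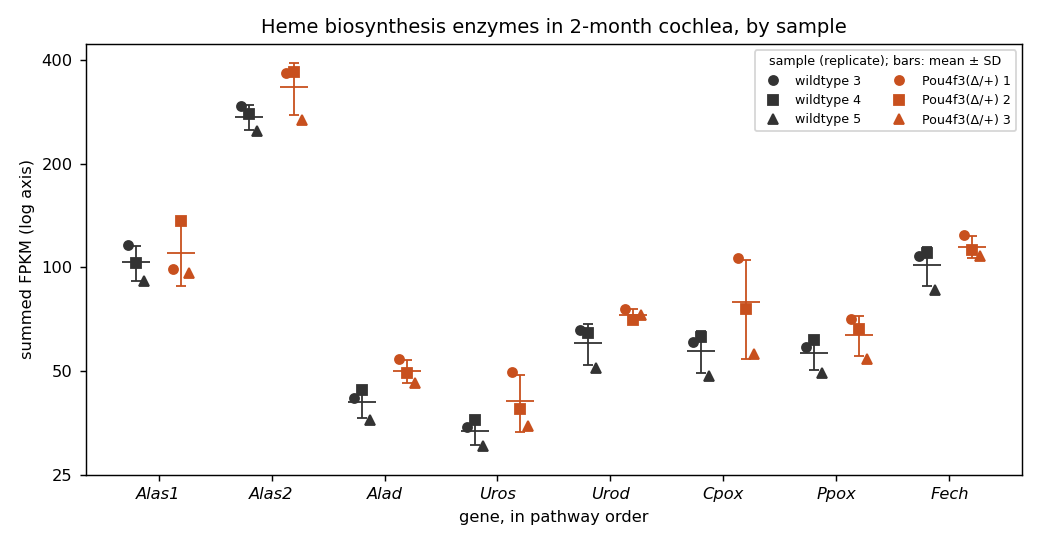
Summed FPKM of the 8 genes in pathway order (y axis, log scale), 1 point per sample, with the mean and SD of each genotype (n = 3 each). *Alas2* stands apart at 248 to 369 FPKM, and the genotypes are separate in *Alad* and *Urod* alone.

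Across all 6 samples the fitted log2 fold change of *Pou4f3(Δ/+)* over wildtype was above 0 for 8 of 8 genes, against 49.4% of the 17136 genes tested. The largest was that of *Cpox*, 0.47 (SE 0.21), followed by *Alad* at 0.31 (SE 0.10), *Uros* at 0.30 (SE 0.12) and *Alas2* at 0.29 (SE 0.14). *Urod* and *Ppox* both had 0.21 (SE 0.094 and 0.12), *Fech* 0.18 (SE 0.11) and *Alas1* 0.11 (SE 0.16), which was -0.11 without *Pou4f3(Δ/+)* replicate 2 alone. Leaving out 1 sample at a time moved several values by over 1.5 times. Without *Pou4f3(Δ/+)* replicate 1, *Cpox* was at 0.21, *Uros* at 0.17, *Ppox* at 0.10 and *Fech* at 0.12. Without wildtype replicate 5, *Urod* was at 0.13, *Ppox* at 0.13, *Fech* at 0.075 and *Alas1* at 0.051. Without *Pou4f3(Δ/+)* replicate 3, *Alas2* was at 0.44, *Ppox* at 0.32 and *Alas1* at 0.22. *Alas1* was at 0.19 without wildtype replicate 3 or *Pou4f3(Δ/+)* replicate 1. The median over the 8 genes was 0.25, against -0.0027 over all genes tested.

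By edgeR's quasi-likelihood test, 0 of the 8 genes had an adjusted p under 0.05, as did 0% of all genes. Over all genes, 1309 had an unadjusted p under 0.05, and DESeq2 called 64 at an adjusted p under 0.05, of which 0 were among the 8, while edgeR called 193 genes without *Pou4f3(Δ/+)* replicate 3. Unadjusted, 3 of the 8 were under 0.05 and higher in *Pou4f3(Δ/+)*, where 3.5% of all genes were. The FPKM of every mutant sample was above every wildtype sample in 2 of the 8 genes and in 6.02% of all genes. Nothing is read from these counts, since the genes were chosen with this contrast known.

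For most of the 8 genes the difference lay in *Pou4f3(Δ/+)* replicates 1 and 2. Both were above each of the other 4 samples in FPKM for 6 of the 8 genes, the exceptions being *Alas1* and *Urod*, and for 12.9% of all genes. Without them, 1 mutant sample is left, which is assumed to vary like the wildtype ones. In that fit 4 genes were above 0 and 4 below, and the median fell to 0.02, against -0.0054 over all genes tested. Leaving out the samples that were highest for 6 of the 8 genes lowers the values of those genes in any case. *Cpox* went to -0.05 (SE 0.15), *Alas2* to -0.05 (SE 0.12), *Alas1* to -0.15 (SE 0.13) and *Ppox* to -0.01 (SE 0.13). *Urod* stayed at 0.19 (SE 0.13) and *Alad* at 0.18 (SE 0.13), whereas *Uros* and *Fech* were at 0.05 (SE 0.12) and 0.07 (SE 0.14).

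**Figure D3:**
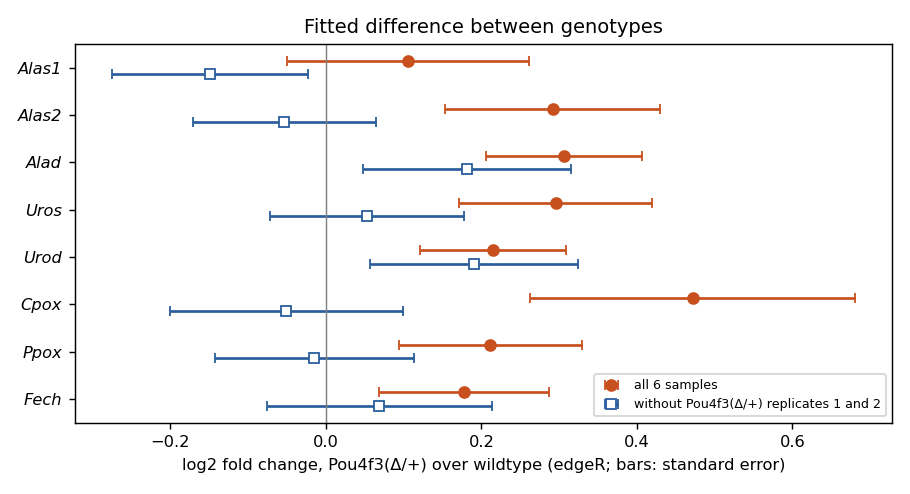
Log2 fold change of *Pou4f3(Δ/+)* over wildtype from edgeR for each gene (x axis; bars, standard error), with all 6 samples (filled) and without *Pou4f3(Δ/+)* replicates 1 and 2 (open). All filled points lie above 0, from 0.11 to 0.47, and the open points lie between -0.15 and 0.19.

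Markers of other cells moved with the same samples. Of 13 erythroid markers, 12 were listed, none was at 0 in all samples, and all 12 had a log2 fold change above 0, with a median of 0.37 that went to 0.0057 without the 2 mutant samples. Their summed FPKM was 11461 to 13358 in wildtype, while *Pou4f3(Δ/+)* replicates 1, 2 and 3 had 15223, 17687 and 12418. The beta-globin gene *Hbb-bs* alone had 6447 to 9818 FPKM, and *Gata1*, the transcription factor of red cell precursors, 20.4 to 38.0 FPKM. By mean log2 CPM of these markers, the samples ran from wildtype replicate 5 (7.86) through mutant replicate 3 (8.17), wildtype replicates 3 (8.31) and 4 (8.32) and mutant replicate 2 (8.62) to mutant replicate 1 (8.75). *Cpox*, *Ppox* and *Fech* put the 6 samples in this same order. *Uros* kept it for 14 of 15 pairs of samples, *Alas2* and *Alad* for 13, *Urod* for 11 and *Alas1* for 10. Wildtype replicates 3 and 4 were nearly level by this mean. By the summed FPKM of the markers the order was instead exactly that of *Alas2*, with wildtype replicate 4 below 3 and mutant replicate 1 below 2. How many of all genes keep either order was not counted. All these values share their libraries and depth, and the part of erythroid RNA in the genotype values of the 8 genes was not tested.

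**Figure D4:**
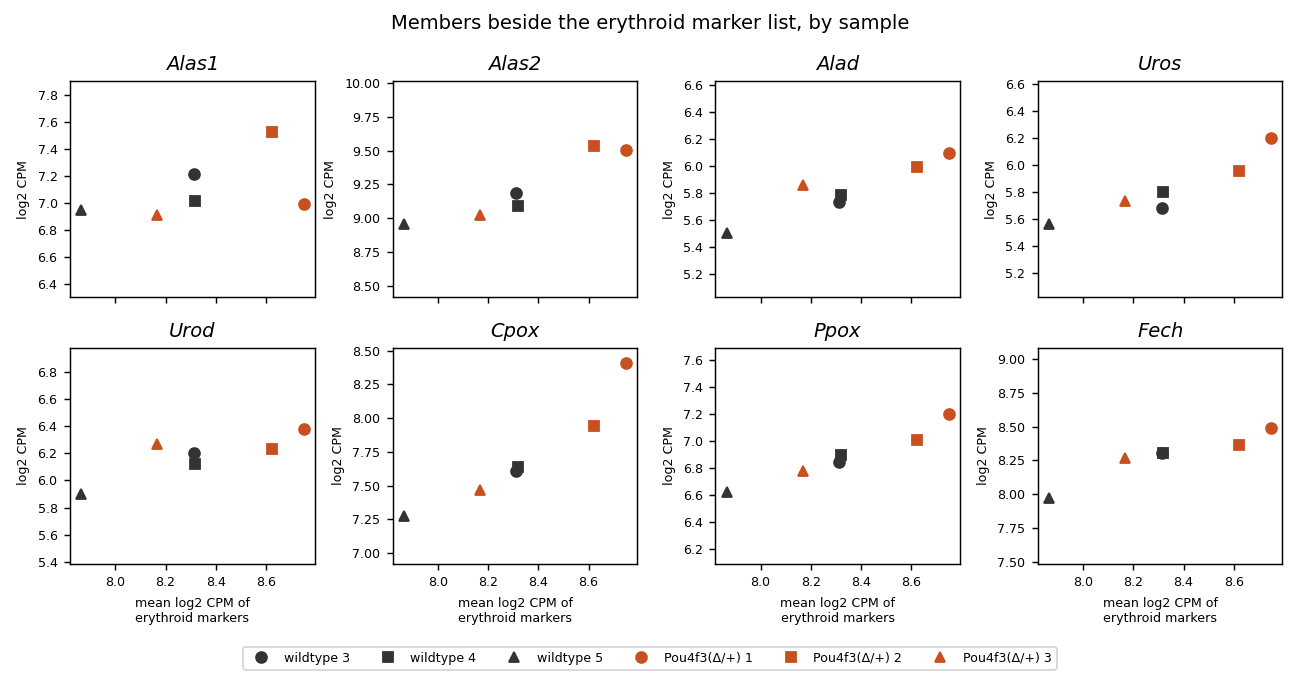
Log2 CPM of each gene (y axis, the same span in each panel) against the mean log2 CPM of the 12 erythroid markers (x axis), 1 point per sample. *Cpox*, *Ppox* and *Fech* increase from wildtype replicate 5 at 7.86 to *Pou4f3(Δ/+)* replicate 1 at 8.75 without a change of order, and *Alas1* is high in *Pou4f3(Δ/+)* replicate 2 instead.

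The same mutant samples were also high in B cell markers. All 9 markers (*Cd79a*, *Cd79b* and others) had a log2 fold change above 0, with a median of 0.84, or 0.14 without the 2 samples. Their summed FPKM was 149 to 175 in wildtype and 301, 340 and 182 in *Pou4f3(Δ/+)*, and their part in the values of the 8 genes was not tested. Of 7 neutrophil markers 2 were above 0 and 5 below (median -0.04, or 0.11 without the 2 samples). Of 5 bone markers 1 was above 0 and 4 below (median -0.21, or -0.38 without them). The 8 hair cell markers had a median of 0.13, or 0.12 without the 2 samples, with 5 above 0 and 3 below. The 7 lateral wall and supporting cell markers had a median of -0.17, or 0.04 without the 2 samples, with 3 above 0 and 4 below. The lowest was *Kcne1*, a potassium channel subunit of the stria vascularis, at -0.84 (SE 0.24), or -0.33 without them.

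The promoters of 7 of the 8 genes were found in RefSeq (GRCm38.p6) as 10 windows of the 250 bases before RefSeq's start site, and that of *Fech* was not. They were searched on both strands for the core site of the erythroid GATA factors, in its form AGATAA, the one with a T in front, TGATAA, and those of either that end in G, namely AGATAG and likewise TGATAG. *Alas2*, *Uros* (in 1 of 2 windows) and *Cpox* held at least 1, each in 1 window, so that 3 of the 10 windows had a match. Of all 32851 windows 26.5% had a match. The windows of *Uros* and *Cpox* held 2 each, and 6.40% of all windows held 2 or more. The windows of *Alas2*, the erythroid synthase, and of *Cpox*, with the largest fold change, are shown with the matches in capitals. In *Alas2* (chrX:150547167-150547374, plus strand, printed up to the GENCODE start, which lies upstream of RefSeq's) there is 1 match, and in *Cpox* (chr16:58669958-58670207, plus strand) 2 that overlap by 1 base:
Alas2 promoter: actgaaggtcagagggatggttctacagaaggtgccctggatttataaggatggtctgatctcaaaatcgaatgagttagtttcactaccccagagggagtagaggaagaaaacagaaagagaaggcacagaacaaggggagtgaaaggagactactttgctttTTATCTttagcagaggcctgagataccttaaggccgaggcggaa
Cpox promoter: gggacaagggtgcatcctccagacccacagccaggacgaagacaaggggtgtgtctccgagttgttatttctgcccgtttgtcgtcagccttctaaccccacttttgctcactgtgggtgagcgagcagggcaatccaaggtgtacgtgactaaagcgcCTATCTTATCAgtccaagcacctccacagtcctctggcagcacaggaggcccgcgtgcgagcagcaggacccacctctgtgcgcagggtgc
A match describes letters only, and binding was not measured here.

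Among the 50 transcripts, 18 held at least 10% of their gene's FPKM, 26 held less and 6 were listed at 0 in all samples. *Cpox* and *Fech* had a single transcript each. *Alad* was mostly ENSMUST00000030090, at 89.2% ± 1.5 in wildtype (SD, n = 3) and 88.4% ± 1.3 in the *Pou4f3(Δ/+)* samples (SD, n = 3).

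*Uros* (chromosome 7, 133686243 to 133710072) divided over more forms. The coding ENSMUST00000106146 held 40.0% ± 4.9 and 41.5% ± 1.6, the retained intron ENSMUST00000135760 19.7% ± 1.1 and 20.3% ± 1.8, and the coding ENSMUST00000106145 13.1% ± 8.2 and 16.6% ± 4.1. In wildtype the latter ran from 5.3% in replicate 3 to 21.6% in replicate 4, a wider range than the 3.5 percentage points between the genotype means. Another coding form, ENSMUST00000033276, was the only tested transcript of the 8 genes with each mutant sample below each wildtype sample, at 3.15, 3.67 and 3.05 FPKM in wildtype and 0.93, 2.76 and 2.39 FPKM in *Pou4f3(Δ/+)*. It was picked out for its values, and such a pattern was found in 5.15% of all transcripts tested.

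*Urod* and *Ppox* were rich in transcripts annotated with a retained intron, a class of transcript without an annotated protein. In *Urod* (chromosome 4, 116989965 to 116994413) these forms held 39.6% ± 4.8 in wildtype and 45.0% ± 2.8 in *Pou4f3(Δ/+)*, and in *Ppox* 73.6% ± 3.8 and 73.7% ± 2.9. The main coding transcript of *Urod*, ENSMUST00000030446, had 38.0, 35.6 and 33.0 FPKM in wildtype and 42.8, 36.3 and 39.2 FPKM in *Pou4f3(Δ/+)*, which overlapped. Its retained intron ENSMUST00000127635, of 511 bases, had 18.7, 20.9 and 13.5 FPKM in wildtype and 23.8, 23.3 and 24.1 FPKM in *Pou4f3(Δ/+)*, which did not. The separation of the *Urod* sums thus held in this short form and not in the coding one.

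*Ppox* (chromosome 1, 171275990 to 171281186) divided over a coding form and several retained introns. The coding ENSMUST00000073120 held 26.1% ± 3.4 in wildtype and 26.3% ± 2.9 in *Pou4f3(Δ/+)*. The retained introns ENSMUST00000126765, ENSMUST00000152689, ENSMUST00000155083 and ENSMUST00000151442 held 26.0%, 22.5%, 11.8% and 12.7% in wildtype and 24.97%, 23.3%, 12.7% and 11.1% in *Pou4f3(Δ/+)*. Each of these shares differed between genotypes by less than the SD of at least 1 group.

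The *Ppox* transcript listed by the study as changed, ENSMUST00000133050, is a further retained intron, from 171280365 to 171281119. It had 0.32, 0.47 and 0.20 FPKM in wildtype and 1.47, 0.90 and 0.91 FPKM in *Pou4f3(Δ/+)*, from 2.09 to 4.10 and from 8.09 to 15.7 counts. It made up 0.57% ± 0.18 and 1.70% ± 0.36 of the gene's FPKM. It was too low for the filter on low counts, and without that filter its log2 fold change was 1.76 (SE 0.79), against 0.18 (SE 0.12) for the coding ENSMUST00000073120. How reads shared with the other *Ppox* forms were divided was not tested.

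**Figure D5:**
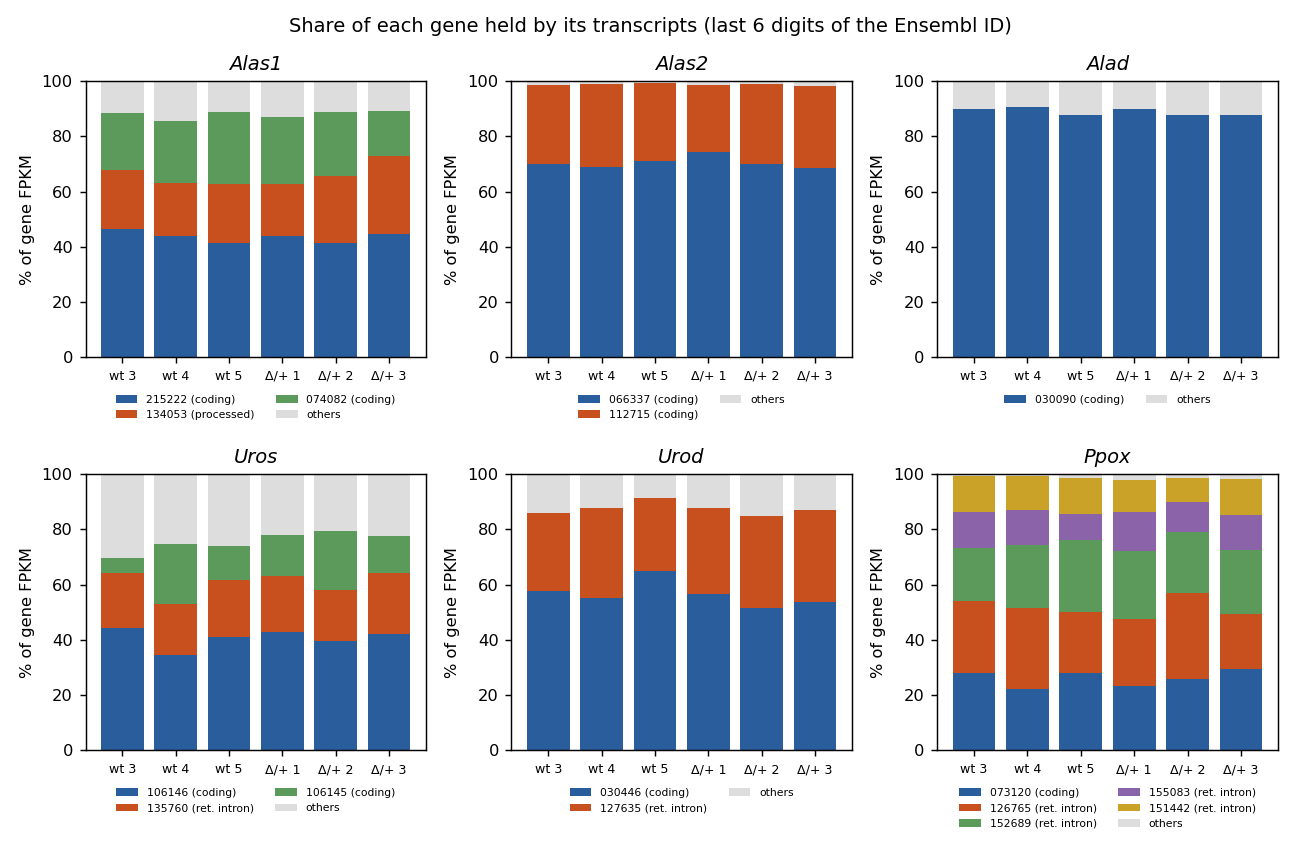
Share of the gene's FPKM (y axis, %) held in each sample by the transcripts with at least 10% on average, for the 6 genes with more than 1 transcript (x axis, sample by genotype and replicate; grey, all other transcripts). The shares of *Alas2* and *Alad* vary little, and *Uros* ENSMUST00000106145 ranges from 5.3% to 21.6% within wildtype.

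Of the 50 transcripts, 34 passed the filter, and 0 had an adjusted p under 0.05 by edgeR's quasi-likelihood test, as did 0% of the 38347 tested. Over all transcripts 1586 had an unadjusted p under 0.05, and DESeq2 called 130, of which 0 belonged to the 8 genes. Of the 34, 1 had an unadjusted p under 0.05 and was higher in *Pou4f3(Δ/+)*, where 1.95% of all transcripts were. In 5 of them each mutant sample was above each wildtype sample in FPKM, against 5.39% of all transcripts.

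Genes that feed the pathway or handle its product were read from lists chosen with earlier results known. Of 13 genes of mitochondrial supply and transport, 9 had a log2 fold change above 0 and 4 below, with a median of 0.07 (0.04 without *Pou4f3(Δ/+)* replicates 1 and 2), and 0 passed the adjusted test. The largest was *Slc25a37*, the iron importer mitoferrin of red cell precursors, at 0.43 (SE 0.18), which was -0.03 without the 2 samples. The glycine carrier *Slc25a38*, at 0.33 (SE 0.13), and *Tmem14c*, a porphyrin transporter at 0.34 (SE 0.13), were at 0.19 and 0.22 without them. The lowest of the 13 was *Iscu* at -0.10 (SE 0.089), or -0.0073 without them. Of 9 iron genes 6 were above 0 and 3 below (median 0.04, or -0.03 without the 2 samples), and 0 passed. The transferrin receptor *Tfrc* had 111, 114 and 91.4 FPKM in wildtype and 225, 156 and 109 FPKM in *Pou4f3(Δ/+)*. Its log2 fold change was 0.64 (SE 0.24) and went to 0.05 without the 2 samples, and that of *Ncoa4*, the ferritin cargo receptor, was -0.29 (SE 0.12) and -0.03 without them. Of 9 listed genes of heme use, breakdown and export 5 were above 0 and 4 below (median 0.05, or 0.00065 without the 2 samples), and 0 passed. *Blvrb* was at 0.33 (SE 0.15) and the heme oxygenase *Hmox1* at 0.07 (SE 0.15), which were 0.05 and 0.00065 without the 2 samples. The lowest of the 9 was *Cox10* at -0.19 (SE 0.15), or -0.37 without them.

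The genes whose levels over the 6 samples were most like those of *Alas2* were ranked by the root mean square distance between centred log2 CPM values, over 12574 genes. *Rbm38*, an RNA-binding protein, was nearest at 0.02, followed by *Jakmip1* (0.045), *5730508B09Rik* (0.047), *Chac2* (0.051) and *Gucd1* (0.054). Of the other 7 enzymes *Ppox* was nearest to *Alas2*, at rank 194, followed by *Uros* (302), *Alad* (413), *Fech* (784), *Urod* (1543), *Alas1* (2276) and *Cpox* (2621). *Cpox* ranked last of the 7, the distance being one of size as well as of order. Among the genes nearest to *Alas1* were *Nudt16* (0.051), *H2-M3* (0.066), *B4galnt1* (0.069) and *Tmem161b* (0.073), and *Alas2* stood at rank 2014.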

How the data were processed

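RNA-seq data of 3 wildtype and 3 *Pou4f3(Δ/+)* cochlear samples were used. For each sample the authors deposited expected counts per transcript, estimates that need not be whole (82.2% of those above 0 were not), and FPKM values per transcript. The aligner and counting program are not given in the sources used here. The submitters' processing notes name DESeq2 and the build mm8, while the listed length equalled the genomic span in GENCODE M21 (GRCm38) for 48 of the 50 member transcripts, so coordinates are from that annotation. The libraries are described as made after poly(A) selection or rRNA removal, and strand was not stated, so antisense reads cannot be told apart.

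Counts and FPKM were summed per gene symbol. Rounded expected counts were tested in edgeR 4.0.16 (R 4.3.3) with filterByExpr (minimum count 10, minimum total 15), TMM normalization, the quasi-likelihood test without covariates, and Benjamini-Hochberg adjustment over all features tested. The SE was taken as the size of the fitted change over the root of its F statistic. Log2 CPM values used a prior count of 2. Python 3.11.15, NumPy 2.4.6 and pandas 2.3.3 gave the sums and shares. The fit was tested on simulated data.

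Alternatives were DESeq2 1.42.0, its size factors in edgeR, no filter, limma-trend (limma 3.58.1) on log2(FPKM + 0.5, 0.1 or 1), each sample left out, and *Pou4f3(Δ/+)* replicates 1 and 2 left out together. The members and all lists were chosen with earlier results of these data known. Named were all 8 enzymes, transcripts with at least 10% of their gene's FPKM, the study's *Ppox* transcript, the 5 genes most like *Alas2* and *Alas1*, and examples from the lists, of which those at the extremes were picked after their values were seen. One result selected in this way is not reported here. *Flvcr1*, *Flvcr2* and *Ahsp* were not found under these symbols.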

Additional observations from a re-analysis of the deposited data

How the results depend on the processing

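Among 104 alternative values of the 8 log2 fold changes, 99 kept the direction and 5 were reversed. Leaving out 1 sample put *Alas1* at -0.11 (without *Pou4f3(Δ/+)* replicate 2) to 0.22. With *Pou4f3(Δ/+)* replicates 1 and 2 left out together, *Alas1* was at -0.15, *Alas2* at -0.053, *Cpox* at -0.051 and *Ppox* at -0.015. The adjusted p of the 8 genes was at least 0.0735 in every fit run. The count of all genes with an adjusted p under 0.05 was 0 with edgeR, 64 with DESeq2, 9 without the filter, 1 with limma-trend on log2(FPKM + 0.1) and 6 with both mutant samples left out. Leaving out 1 sample gave 0 to 193 (193 without *Pou4f3(Δ/+)* replicate 3, 3 without wildtype replicate 4). For transcripts the counts were 0, 130 with DESeq2, 1 without the filter and 2 with limma-trend on log2(FPKM + 0.1), and leaving out 1 sample gave 0 to 3. The log2 difference in the *Alas2* to *Alas1* ratio and the shares of the leading transcripts moved by less than the larger of the 2 groups' SDs under the alternatives run, though the share difference changed sign for *Alas1*, *Alas2*, *Uros* and *Ppox* (*Alas2* from 0.88 to -0.81 percentage points without *Pou4f3(Δ/+)* replicate 1). No paired analysis was possible because the genotypes share only replicate number 3. At 3 samples per group, standard errors of 0.094 to 0.21 on the log2 scale limit the differences that could be seen.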
